A study of Caenorhabditis elegans with 2 samples.

Results

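The genes described here are the nuclear genes for mitochondrial ribosomal proteins of the nematode Caenorhabditis elegans, and the measurement is where tagged NHR-90, a nuclear hormone receptor, gave peaks in chromatin immunoprecipitation with sequencing (ChIP-seq). They were taken by name, as every nuclear protein-coding gene of the WBcel235 annotation whose symbol starts with mrpl- (large subunit) or mrps- (small subunit) and a digit. There were 70 such genes among 19973 nuclear protein-coding genes, 41 named mrpl- and 29 named mrps-. All samples came from 1 group, with 2 biological replicates, of whole hermaphrodites of strain OP484, at the young adult stage, 64 h past a synchronized start from larvae that hatched and starved after bleaching. The line stably expresses NHR-90 with GFP and FLAG at its C terminus, and chromatin was recovered with an anti-GFP antibody, although another label field gives nhr-90 as the antibody. The sources used here do not give the promoter or copy number of the transgene. The control listed for the experiment was not analysed here, and peaks from whole animals do not tell which cells they came from.

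Mitochondria carry their own ribosome, which makes the few proteins that the mitochondrial genome encodes, most of them parts of the respiratory chain. The ribosomal RNAs of this ribosome come from the mitochondrial genome, while its proteins are encoded in the nucleus, made in the cytosol and imported. Some of the proteins have counterparts in bacterial ribosomes, and others are found only in mitochondria. In C. elegans, loss of mitochondrial ribosomal proteins such as MRPS-5 is known for an imbalance with the nuclear-encoded respiratory chain, a mitochondrial stress response and a longer life.

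A gene was counted in a list when a peak summit lay from 1000 bp upstream to 500 bp downstream of one of its transcript starts, and its strongest such peak by the authors' signal gave its value. The list of peaks that passed the authors' filter on the irreproducible discovery rate (IDR, which asks how far both replicates rank peaks alike) placed a peak at 3 of the 70 genes (4.29%), mrpl-23, mrps-21 and mrps-31, beside 3.62% of all protein-coding genes. The longer list called from both replicates together, here the pooled list, placed one at 55 genes (78.6%), beside 42% of all genes. Both shares stood in 1 set of genes, so the share with a reproducible peak was near the background, while the share with any listed peak was 1.87 times the background. The longer list was deposited as peaks and background together, so its lower entries are listed positions and are not taken here as binding sites.

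Peaks at small-subunit genes came first by signal outside the neighbourhood of small RNA genes. At mrps-31, named after a mitochondria-specific protein of the small subunit, the IDR and pooled peak had a signal of 100 and ranked 1399 of 29981 nuclear pooled peaks. Its signal was 54.5 in replicate 1, where it ranked 1693, and 45 in replicate 2, where it ranked 1436. The summits of both replicate peaks lay within 1 bp of the pooled summit, 148 bp upstream of the start, between genes, and no other protein-coding gene had this summit in its start window. At mrps-21, named after a bacterial-type small-subunit protein, the signal was 108 and the rank 1190, against 66.9 (rank 1113) in replicate 1 alone and 38.4 (rank 1968) in replicate 2 alone. Its summit lay 949 bp upstream of the mrps-21 start. It was nearer to 2 other genes, 265 bp upstream of F29B9.11 on the same strand and 525 bp upstream of jmjd-1.2, which encodes a histone demethylase known in C. elegans for its part in the mitochondrial stress response. Just outside the IDR list, which ended at a signal of 98.9, the strongest gene was mrps-23, named after another mitochondria-specific protein, with a pooled signal of 91.4 and rank 1642. Its replicate ranks were 1957 and 1695. That summit lay 95 bp upstream of mrps-23 and 187 bp upstream of a start of prp-40, a pre-mRNA splicing factor gene. It also lay inside an intron of a prp-40 transcript with another start.

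The 120 bp around these summits are shown because they are the strongest positions at small-subunit genes, read 5′ to 3′ on the strand of the gene named (minus in each) from RefSeq's WBcel235 sequence, which ce11 coordinates follow. They are chrIV:4660406-4660525 for mrps-21, chrIII:3630460-3630579 for mrps-31 and chrIII:9523707-9523826 for mrps-23. Capitals mark a match to the A box of tRNA gene promoters at mrps-21 and the GC box core GGGCGG at mrps-23, and no searched motif was found in the mrps-31 stretch.
mrps-21: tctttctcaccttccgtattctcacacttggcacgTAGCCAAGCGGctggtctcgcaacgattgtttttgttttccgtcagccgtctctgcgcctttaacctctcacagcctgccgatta
mrps-31: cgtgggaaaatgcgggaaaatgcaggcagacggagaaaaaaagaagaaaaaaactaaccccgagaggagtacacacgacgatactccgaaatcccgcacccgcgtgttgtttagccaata
mrps-23: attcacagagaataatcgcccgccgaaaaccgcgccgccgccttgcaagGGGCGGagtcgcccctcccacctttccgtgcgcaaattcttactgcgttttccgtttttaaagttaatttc
The A box was looked for after the mrps-21 sequence was seen. On either strand, it was in 76% of the 100 bp windows at the 384 IDR summits with a tRNA gene within 100 bp and in 8.47% of those at the 956 IDR summits with no tRNA, snoRNA or snRNA gene that near. Over the 54 distinct pooled summits of the 70 genes it was in 4 windows (7.41%), those of mrpl-23, mrps-21, mrpl-41 and mrpl-13, beside 8.1% of the windows at pooled summits of any protein-coding gene. The share at these genes was thus near the background. No tRNA gene is annotated within 100 bp of the mrps-21 summit, and a match is not evidence of a transcribed gene.

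**Figure D1:**
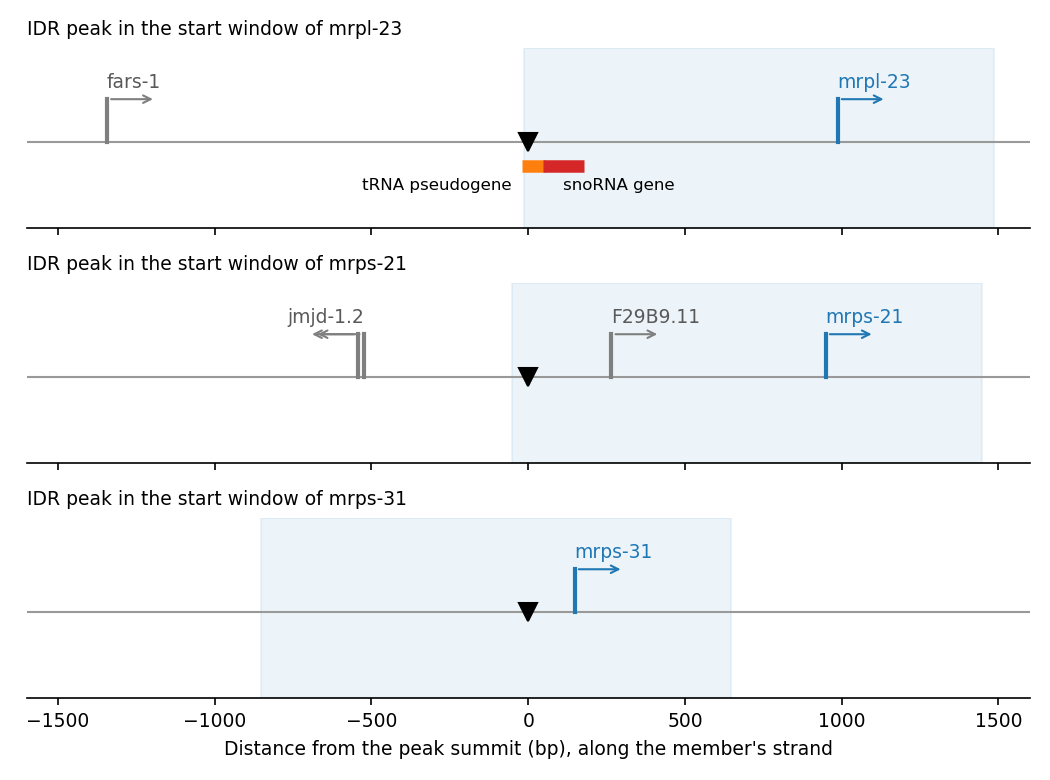
Maps of the 3 IDR peaks in start windows of mitochondrial ribosomal protein genes, with distance from the peak summit (triangle) in bp along the strand of the gene named in each panel. Blue ticks and arrows are the start and direction of that gene, and grey ones those of neighbouring protein-coding genes. The shaded span is the start window, and bars mark the tRNA pseudogene and the snoRNA gene at the mrpl-23 peak. The summit lies 148 bp from the start of mrps-31, 949 bp from that of mrps-21 and 987 bp from that of mrpl-23.

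The large-subunit genes mrpl-32, mrpl-55 and mrpl-28, outside the IDR list, are described together because the sequence at their summits shares a word. Other genes of the large subunit, mrpl-15 with a stronger peak among them, also had a summit between genes upstream of their own start. At mrpl-32, whose bacterial counterpart is protein L32, the pooled signal was 76.1 (rank 2219), with replicate ranks of 3845 and 1654 and a summit 307 bp upstream. At mrpl-55, mitochondria-specific, the pooled signal was 66.8 (rank 2790) with a summit 155 bp upstream. Its replicates stood apart, at 48.5 (rank 2061) in replicate 1 against 18.9 (rank 8472) in replicate 2. At mrpl-28, whose bacterial counterpart is protein L28, the pooled signal was 57.7 (rank 3647), the replicate ranks 7653 and 3170, and the summit 124 bp upstream. In all 3 genes the replicate summits lay within 45 bp of the pooled one.

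The stretches of these genes are shown because they share an 8-base word, CCGCAAAC, set in capitals. They are chrIII:8449390-8449509 on the plus strand for mrpl-32, chrIV:443770-443889 on the plus strand for mrpl-55 and chrII:156073-156192 on the minus strand for mrpl-28.
mrpl-32: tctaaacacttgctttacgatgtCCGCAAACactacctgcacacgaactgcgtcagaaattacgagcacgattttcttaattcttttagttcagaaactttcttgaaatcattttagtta
mrpl-55: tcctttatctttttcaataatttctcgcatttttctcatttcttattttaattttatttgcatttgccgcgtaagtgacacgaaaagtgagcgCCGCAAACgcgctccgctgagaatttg
mrpl-28: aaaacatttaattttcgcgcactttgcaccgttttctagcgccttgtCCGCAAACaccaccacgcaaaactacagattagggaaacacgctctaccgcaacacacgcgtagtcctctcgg
The stretches read in the same way at mrpl-1 and mrpl-37 did not hold it. The word was noticed by reading these stretches, so its counts describe it and test nothing. On either strand it was in 4 of the 54 windows of 100 bp at distinct pooled summits of the 70 genes (7.41%), the fourth being that of mrpl-45. It was in 0.469% of the 7249 windows at pooled summits of any protein-coding gene and in 0.352% of the 1422 windows at nuclear IDR summits. In the 500 bp upstream of the first start, 7 of the 70 genes held it (10%), and so did 1.37% of all protein-coding genes. Without the 3 genes printed, it was upstream of 4 of 67 (5.97%), which were mrpl-45, mrps-10, mrps-15 and mrps-16. The pooled ranks of those 4 ran from 6446 to 27114, so the word also stood at genes with low peaks. None of the 83 cytosolic ribosomal protein genes held it there, which as a count of 0 allows a share of up to 3.61%.

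The strongest peak of all at these genes was at mrpl-23, whose bacterial counterpart lies at the exit tunnel of the ribosome. Its signal was 326 in the pooled and IDR lists, where it ranked 61. Replicate 1 ranked it 80, at 177, and replicate 2 ranked it 46, at 147. It was the only one of the 70 genes within the 1422 highest nuclear peaks of each replicate (1.43%), where 2.44% of all genes were found. The summit lay 987 bp upstream of the mrpl-23 start on chromosome I, which is 13 bp inside the edge of the start window. There it fell in an intron of fars-1, a gene for a subunit of phenylalanyl-tRNA synthetase. It lay 20 bp into a 72 bp tRNA pseudogene and 48 bp from the snoRNA gene T08B2.13, as the map of the IDR peaks shows. The 221 bp ncRNA gene T08B2.14, which the map does not draw, also held the summit. Of the 55 genes with a pooled summit, only mrpl-23 had it within 100 bp of a tRNA, snoRNA or snRNA gene. Such summits were not counted for all genes, so this is not read as a trait of these genes.

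Among the highest peaks of each replicate, the 70 genes were no more frequent than others. Within the 1422 highest nuclear peaks, replicate 1 had a summit at 2 of them, mrpl-23 and mrps-21 (2.86%), beside 3.74% of all genes. Replicate 2 had 1, mrpl-23 (1.43%), beside 3.5%. The deposited −log10 q-value reached its highest value, 2.79, in 2764 nuclear pooled peaks, and 8 of the 70 genes had such a peak (11.4%), beside 7.11% of all genes. These 8 genes were mrpl-23, mrps-21, mrps-31, mrps-23, mrpl-15, mrps-14, mrpl-32 and mrpl-53.

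Further down, the next genes by pooled signal were spread over both subunits. The signal was 77.6 (rank 2147) at mrpl-15, whose bacterial counterpart is protein L15, with a summit 660 bp upstream and replicate ranks of 2674 and 2201. It was 77 (rank 2174) at mrps-14, whose bacterial counterpart is protein S14, with a summit in its own coding sequence 63 bp downstream of the start and replicate ranks of 1866 and 3848. At mrpl-53, mitochondria-specific, the summit lay 346 bp downstream of the start in an intron, with a signal of 71.5 (rank 2469) and replicate ranks of 3802 and 1700. Both replicates therefore listed these 3 genes within their first 3848 nuclear peaks and outside their first 1422. The summit at mrps-6 (59.6, rank 3427) lay in coding sequence of rpn-8, a proteasome subunit gene, and the nearest start was that of rpn-8. Replicate 1 had its strongest peak for mrps-6 592 bp away, at rank 11246. A single peak served mrpl-1 and mrps-24, a large-subunit and a small-subunit gene that diverge from a shared upstream region. Its signal was 57.4 (rank 3684), 146 bp upstream of mrps-24 and 198 bp upstream of mrpl-1, with replicate ranks of 5284 and 3626. The start window of emc-6, a subunit gene of the endoplasmic reticulum membrane complex, held the same summit. Such sharing also applied at mrpl-37 (55, rank 3937), whose summit was nearest to lin-38 and which had no peak in replicate 1, and at mrpl-40 (49.6, rank 4815), whose summit was nearest to F54C4.4.

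**Figure D2:**
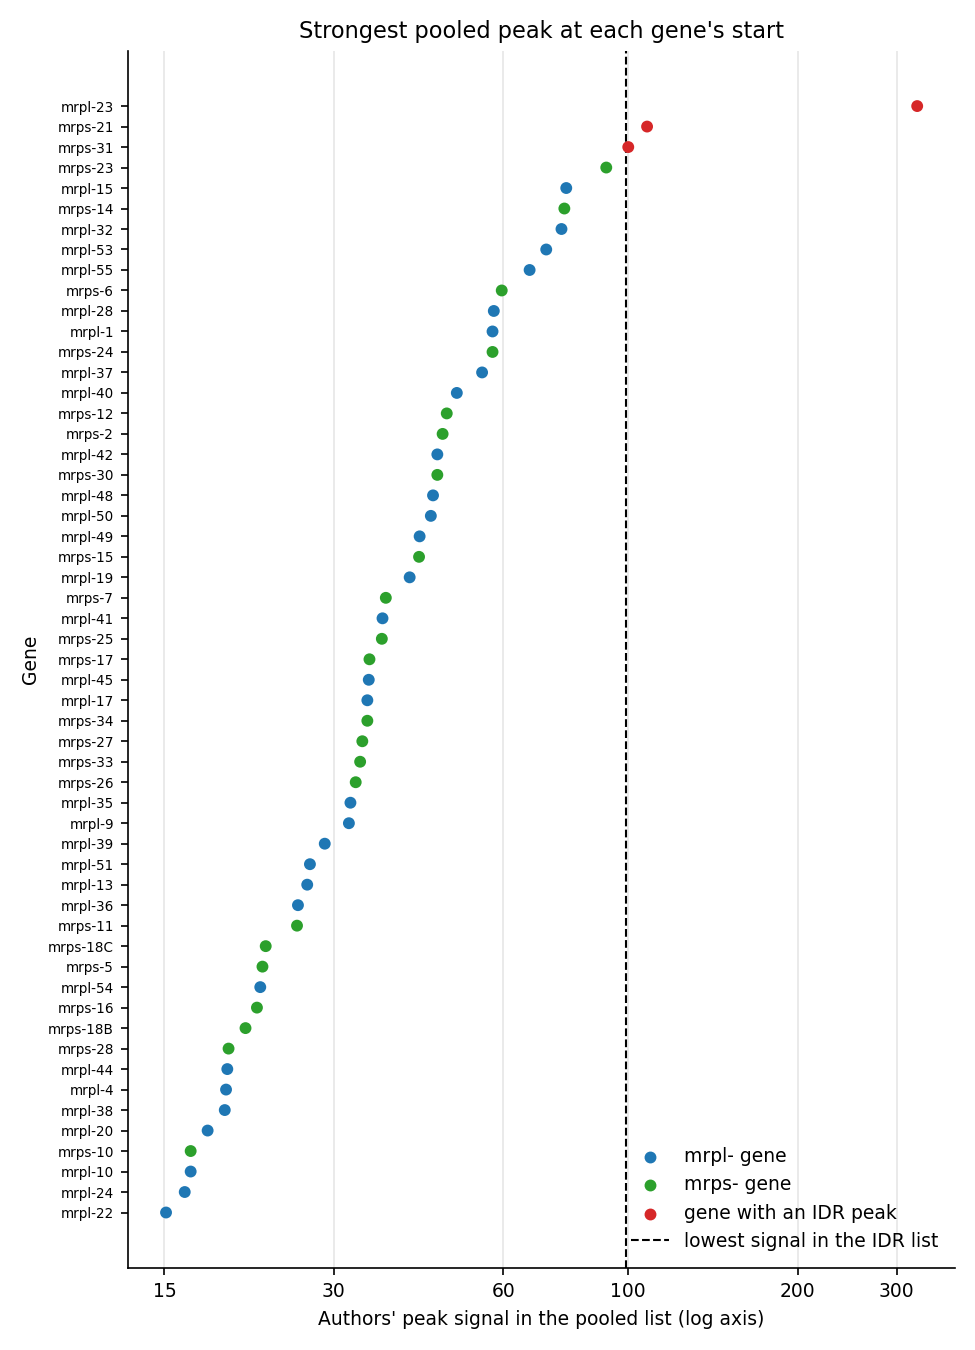
The authors' signal of the strongest pooled peak at the start of each of the 55 genes that had one, on a log axis, with mrpl- genes in blue, mrps- genes in green and the 3 genes with an IDR peak in red. The dashed line is the lowest signal in the IDR list, 98.9. Apart from mrpl-23 at 326, the signals run from 108 down to 15.1.

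The signals of the pooled peaks were like those of other genes with a pooled peak. Their median was 34.7 for the 55 genes and 34.2 for the 8390 protein-coding genes with a pooled peak, and the median ranks were 9440 and 9667. In every range of ranks after 1422, a larger share of the 70 genes than of all genes had its strongest peak. The gap was widest at ranks 5001 to 10000. Of the 70 genes, 17.1% had their strongest pooled peak at ranks 1423 to 5000, where 8.75% of all genes had theirs. The shares were 24.3% and 9.17% at ranks 5001 to 10000, 18.6% and 12.2% at ranks 10001 to 20000, and 14.3% and 8.27% from there to the end of the list.

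The replicate lists each held a peak at most of the genes but often at different positions. Replicate 1 listed a peak at 54 genes (77.1%, beside 42.3% of all genes), with signals from 10.5 to 177 and a median of 22.2. Replicate 2 listed one at 59 genes (84.3%, beside 41.8%), with signals from 9.7 to 147 and a median of 18.1. Both lists had a peak at 48 genes (68.6%, beside 31%). Over these 48 genes the signals had a Spearman rho of 0.55, and over the 6193 genes with a peak in both lists it was 0.63. In 19 genes (27.1%, beside 13.8% of all genes) the pooled summit and both replicate summits fell within 100 bp. That was 44.2% of the 43 genes with a peak in all 3 lists, and for all genes it was 46.4% of 5915. At these sites rho was 0.76 for the 19 genes and 0.77 for 2747. These correlations are across genes, which share the libraries and are not independent replicates.

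**Figure D3:**
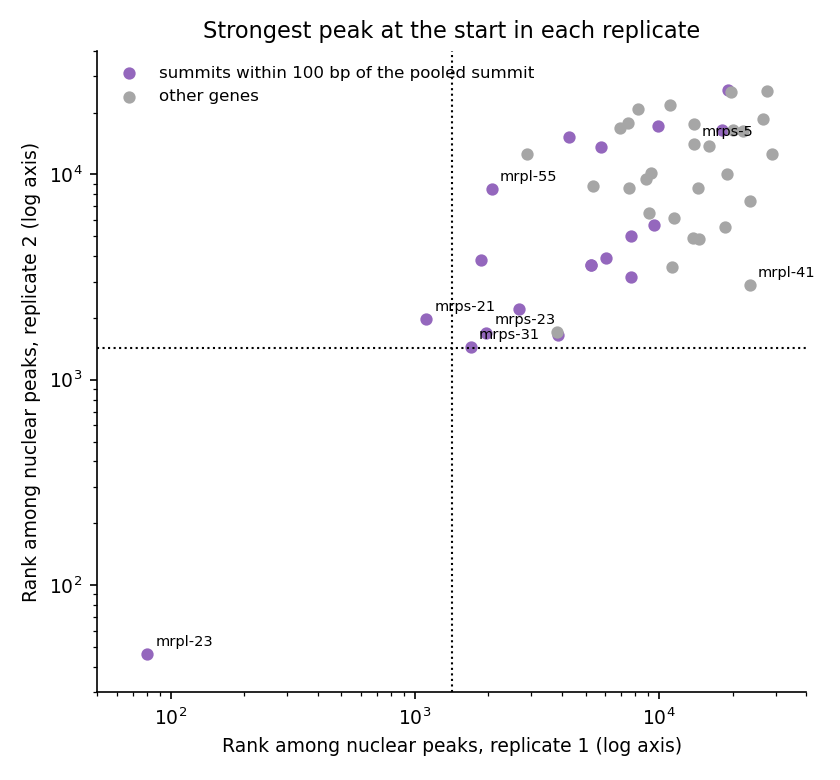
Rank of the strongest peak at the start of each of the 48 genes listed in both replicates, among the nuclear peaks of replicate 1 and of replicate 2, on log axes. Purple points are the 19 genes whose summits in both replicates fall within 100 bp of the pooled summit, and dotted lines mark rank 1422. Only mrpl-23 lies below that rank in both replicates.

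Some genes were listed by a single replicate or by none. Replicate 1 alone listed 6 and replicate 2 alone 11, and mrps-28 had only a pooled peak. No share over all genes was computed for these counts, so they are not read as a trait of these genes. At mrpl-41, mitochondria-specific, replicate 2 ranked its peak 2882 and replicate 1 its own 23463, with summits 894 bp apart. At mrps-5, the C. elegans gene known for lifespan, the pooled signal was 22.4 (rank 19230) with a summit 869 bp upstream in an intron of sel-1. The replicate ranks at mrps-5 were 13857 and 14043, and their summits lay 1453 bp apart. The strongest positions of the replicates were therefore different at this gene. No pooled or replicate list held a summit in the start window of mrpl-16, mrpl-21, mrpl-30 or mrpl-46, all large-subunit genes. That was 5.71% of the 70 genes, and 45.5% of all genes were without one. Of the other 11 genes without a pooled peak, 5 were listed by both replicates (mrpl-11, mrpl-12, mrpl-18, mrpl-34 and mrps-35), with their strongest summits at least 336 bp apart. This count too has no share over all genes beside it.

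The shares are given by subunit, and no difference between the subunits was tested. An IDR peak stood at 1 of 41 mrpl- genes (2.44%) and at 2 of 29 mrps- genes (6.9%), beside 3.62% of all genes. A pooled peak stood at 31 of 41 mrpl- genes (75.6%) and at 24 of 29 mrps- genes (82.8%), beside 42% of all genes. Pooled and replicate summits fell together at 9 mrpl- genes (22%) and 10 mrps- genes (34.5%), beside 13.8% of all genes. By kind of protein, 32 of 44 genes of the bacterial type (72.7%) and 23 of 26 of the mitochondria-specific type (88.5%) had a pooled peak. An IDR peak stood at 2 of the 44 (4.55%) and 1 of the 26 (3.85%), both near the share of all genes.

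Summits lay about where those of other genes lie. The median offset of the 55 pooled summits was 138 bp upstream, and for all genes with a pooled peak it was 168 bp upstream. The 250 bp before the start held 32.7% of the 55 summits and 26.4% of those of all genes. The nearest protein-coding start was that of the gene itself for 43 of the 55 (78.2%), and for all genes this share was 83.3%. By annotation, 25 summits lay in coding exons, 23 between genes, 6 in introns and 1 in a 3′ UTR. These locations were not counted for all genes, so they are not compared with those of other genes.

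**Figure D4:**
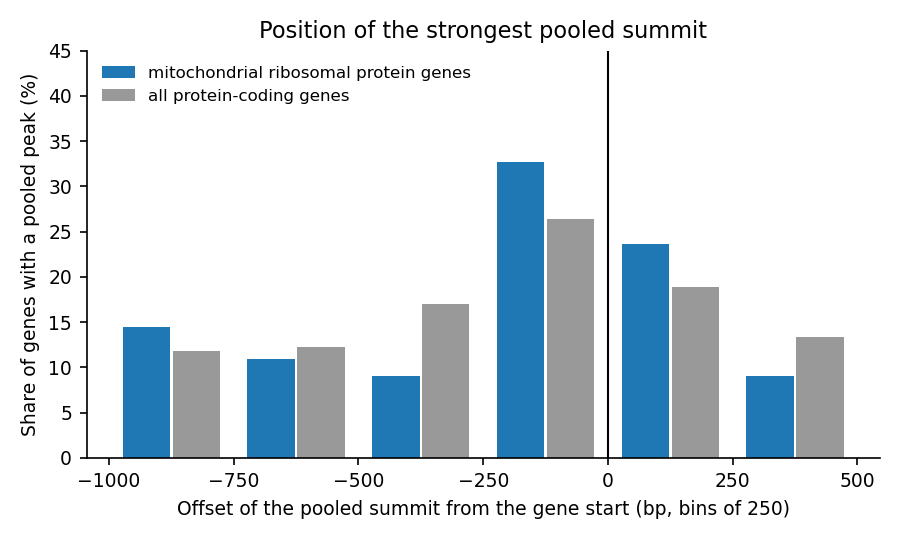
Share of genes with a pooled peak whose strongest summit falls in each bin of 250 bp relative to the gene start, for the 55 mitochondrial ribosomal protein genes (blue) and the 8390 protein-coding genes (grey) with a pooled peak. Negative offsets are upstream. The bin just upstream of the start holds 32.7% of the former and 26.4% of the latter.

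Position in the genome differed between these genes and the rest. None of the 70 lies on the X chromosome, which carries 13.7% of all protein-coding genes. On chromosome III lie 22 of them, a count without a share of all genes to set beside it. A start on the other strand within 1000 bp, in divergent orientation, was annotated for 40% of the 70 genes and for 18.3% of all. The end of a gene on the same strand within 500 bp upstream was annotated for 38.6% and 18.1%. Pooled peaks were frequent in each class. They stood at 78.6% of the 28 genes with a divergent start, where 56.3% of all such genes had one. With a same-strand gene end within 500 bp it was 21 of 27 genes (77.8%), beside 53.1% of all such genes. With neither neighbour it was 12 of 15 genes (80%), beside 35.2% of all autosomal genes of that kind. Among autosomal genes as a whole the share was 43.1%. Gene expression was not measured, so its part in the shares was not tested.

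Base composition at the summits was closer to that of other gene-start peaks than to that of IDR peaks. The 54 distinct windows of 100 bp at pooled summits of these genes had a GC content of 41.7% ± 9.57 (SD over windows). It was 41.7% at pooled summits of any protein-coding gene and 48.3% at nuclear IDR summits. The 100 bp upstream of the starts of the 70 genes held 27.1% GC, and those upstream of all protein-coding genes 33.2%. Of 8 motifs searched on both strands in the 54 windows, the nuclear receptor half-site AGGTCA was in none, which allows a share of up to 5.56%, and was in 2.59% of the windows at pooled summits of any gene. In windows of 200 bp it was in 3 of the 54 (5.56%) and in 5.52%, so its absence held for the 100 bp windows only. The GC box core GGGCGG was in 9.26% and 4.21% (9.26% and 7.46% in 200 bp). The GATA site TGATAA was in 7.41% and 11.1%, and the T run TTTTTTTT in 9.26% and 7.57%. The ETS core CCGGAA was in 5.56% and 3.7% (14.8% and 7.21% in 200 bp). In the 200 bp upstream of the starts of the 70 genes, the GC box core was in 5.71% and the ETS core in 4.29%. Upstream of all protein-coding genes they were in 5.97% and 5.49%. The E-box CACGTG, the GA repeat GAGAGAG and the core AAGATGG were in 1 window each (1.85%), beside 3.13%, 4.29% and 1.59% of the windows at pooled summits of any gene.

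Other genes of mitochondrial function, listed by symbol, and the cytosolic ribosome gave other shares. Over all protein-coding genes, 3.62% had an IDR peak and 42% a pooled peak. Of 83 cytosolic ribosomal protein genes, 23 had an IDR peak (27.7%) and 76 a pooled peak (91.6%), with a median pooled rank of 2866. Of 50 nuclear genes for respiratory chain subunits and assembly factors, 9 had an IDR peak (18%) and 46 a pooled peak (92%), with a median rank of 3850. The strongest of these 9 was cox-5B, a cytochrome c oxidase subunit gene, with a signal of 364 and rank 34. Of 13 genes of mitochondrial chaperones and stress regulators, 4 had an IDR peak (30.8%) and 12 a pooled peak (92.3%), with a median rank of 3324. Those 4 were the chaperone genes hsp-60 and trap-1, ubl-5 of the mitochondrial stress response, and the protease gene ymel-1. Among the 11 mitochondrial aminoacyl-tRNA synthetase genes, ears-2 had an IDR peak, and 54.5% had a pooled peak. A list of 9 genes of mitochondrial genome maintenance and transcription also held matrix protease genes, and its only gene with an IDR peak was one of these, clpp-1, while 55.6% had a pooled peak. Neither the 9 translation factor genes nor the 17 import genes included one with an IDR peak, and 44.4% and 52.9% of them had a pooled peak. With so few genes a count of 0 allows shares of up to 33.3% and 17.6%. No difference between these lists was tested.

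**Figure D5:**
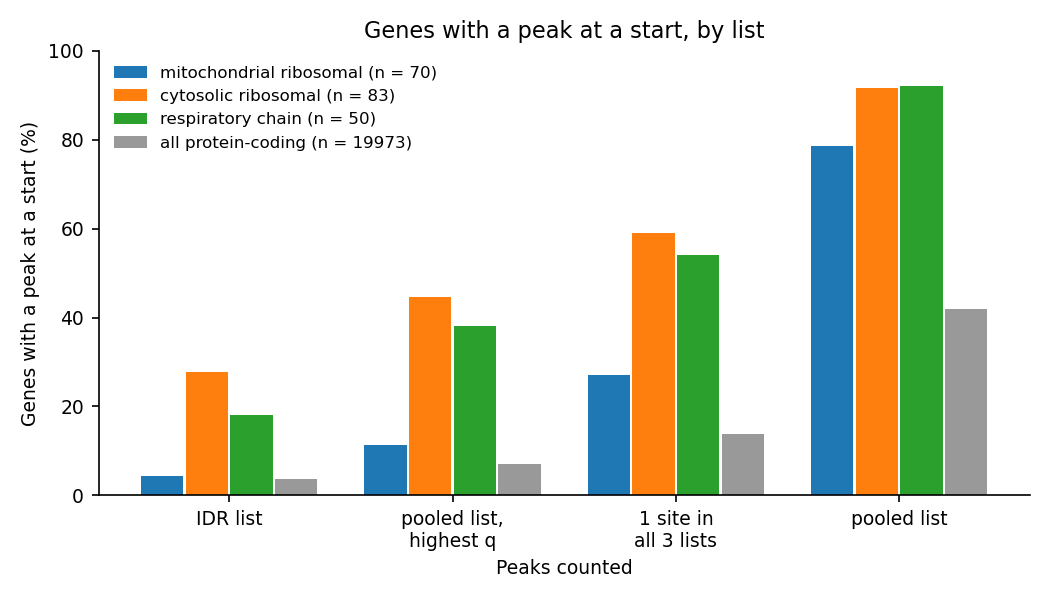
Share of genes with a peak at a start for the mitochondrial ribosomal protein genes (blue), cytosolic ribosomal protein genes (orange), nuclear respiratory chain genes (green) and all nuclear protein-coding genes (grey), by the peaks counted. A site in all 3 lists means that the pooled summit and both replicate summits fall within 100 bp. The first set stands at 4.29% in the IDR list beside 3.62% of all genes, and at 78.6% in the pooled list beside 42%.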

How the data were processed

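ChIP-seq peaks were analysed for 2 replicates of 1 group. The deposited narrowPeak lists hold the authors' signal per peak, a −log10 q-value and a summit offset. Per the deposited text records, replicate and pooled lists were made from alignments with a control alignment. The sources used here do not give the caller, the aligner, their versions or the IDR threshold, and read depth is unknown. The ce11 lists were placed on transcript starts of Ensembl release 115, with RefSeq sequence. Mitochondrial peaks were left out, which kept 1422 of 1441 IDR, 29981 of 30000 pooled, 29984 of 30000 replicate 1 and 26597 of 26622 replicate 2 peaks, and ranks count nuclear peaks. The ce10 lists entered only by the size of the IDR list. A signal was compared within its own list only. With 1 group, no test between samples could be made, and no p-value is given.

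Genes named were those with an IDR peak, the 15 with the highest pooled signal, those with a peak among the highest of a replicate, mrps-5, those with no peak in the pooled and replicate lists, and protein-coding genes whose window holds the summit of a named IDR peak. All other genes named, such as mrpl-41, mrpl-45 and the neighbours of peaks outside the IDR list, were chosen after their values were seen. The members and lists were chosen with earlier results of these data known, and 7 other gene lists were trimmed by gene identity. Bacterial and mitochondria-specific types follow the naming of human counterparts. Where a share is 0, the limit is 3 counts of the total. Placement was tested on simulated peaks. Python 3.11.15 with pandas 2.3.3 was used.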

Additional observations from a re-analysis of the deposited data

How the results depend on the processing

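No paired analysis was possible because the study has 1 group. The IDR count of 3 became 1 (mrps-31; 1.43%, beside 2.09% of all genes) with a window of 500 bp upstream to the start, 5 (adding mrpl-48 and mrps-28; 7.14%, beside 5.46%) with a window of 2000 bp upstream to 1000 bp downstream, 1 (mrpl-23) among IDR peaks above the median signal of that list, and 6 with as many pooled peaks as the 2232 of the ce10 IDR list, where 5.76% of all genes had one (8.57% of these). The highest peaks of a single replicate gave 1 to 2. With each summit given only to its nearest start, the IDR count was 2 (mrpl-23 and mrps-31, 2.86% beside 3.02% of all genes). Without summits near small RNA genes it was also 2 (mrps-21 and mrps-31). Where any base of a peak counted it was 4, with mrps-28 added. The pooled count of 55 became 27 with the 500 bp window, where 24.2% of all genes had a peak (38.6% of these), 19 where all summits had to fall within 100 bp, an alternative chosen after seeing the data, and 54 to 59 in a single replicate list. The count in both replicates became 16 with the 500 bp window. The single gene among the highest peaks of both replicates became 0 with that window and without summits near small RNA genes, 3 with the wide window and 2 where any base of a peak counted. For these alternative counts in both replicates, and for the upper part of the IDR list, no share over all genes is given. The same holds for the IDR counts without summits near small RNA genes and with any base of a peak. All these counts are therefore not read as a result about these genes. The median rank became 6933 with the wide window and 8432 where any base counted, and lay between 9205 and 9705 in single replicates. The median GC content of 41% became 39% in windows of 200 bp. With the wide window, mrps-28 took a peak of rank 38 in place of 22897. If a summit went only to its nearest start, mrps-21 dropped to rank 19372. The number of replicates, 2, limits the precision of every rank.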

Other observations

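In the 500 bp upstream of the first start, the word CCGCAAAC shared by mrpl-28, mrpl-32 and mrpl-55 stood upstream of 1.37% of all protein-coding genes and at genes of some other mitochondrial lists. It was upstream of 3 of 50 respiratory chain genes (6%), which were asg-1, atp-4 and nduf-9, of 2 of 17 import genes (11.8%), mppa-1 and tin-9.2, and of mtss-1 among 9 genes of mitochondrial genome maintenance and transcription (11.1%). It was upstream of none of the 9 translation factor genes, the 11 aminoacyl-tRNA synthetase genes and the 13 genes of chaperones and stress regulators, where a count of 0 allows shares of up to 33.3%, 27.3% and 23.1%. The start windows of asg-1 and mrps-15 hold the same pooled summit, so this pair is not independent. In the window from 1000 bp upstream to 500 bp downstream, 8 of the 70 mitochondrial ribosomal protein genes held the word (11.4%), and so did 2.95% of all protein-coding genes. Without mrpl-28, mrpl-32 and mrpl-55 it was 5 of 67 (7.46%). That window also held it at 1 of the 9 translation factor genes, tufm-1 (11.1%), and at 1 of the 83 cytosolic ribosomal protein genes, rps-27 (1.2%). The word was chosen from these genes, and no test was made.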
